A study of Mus musculus with 10 samples.

Results

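Naïve CD8+ and naïve CD4+ T cells of the mouse spleen were compared before any culture, on 2 arrays of naïve CD8+ cells and 2 arrays of naïve CD4+ cells, which are 4 of the 10 arrays of the series. The arrays were taken by their titles, and all 17400 autosomal genes were examined, of 18193 genes that could be named. A gene with several probe sets was read from the one that was brightest on average across the series. Both populations were sorted by flow cytometry from the spleen of wild-type C57BL/6 mice as TCRβ+ CD62L+ CD44- cells, the one also as CD8+ and the other as CD4+. The age and number of the mice are not given in the sources used here, and neither is whether the 2 arrays of a group come from separate animals. The naïve CD8+ arrays read 12.51 and 3.97 for *Xist*, a mark of female cells, so these 2 cannot come from the same animal or pool. The p-values can speak only for the spread of these arrays, which may be technical in the other groups. The remaining arrays served the estimate of the spread, and 4 of them, from CD4+ and CD8+ effector-memory (TEM) cells sorted on day 25 of culture, served a second comparison. Those TEM cells grew from naïve cells stimulated weekly, with IL-2, by irradiated LMP1/2A+ B lymphoma cells, a line that carries 2 latent membrane proteins of Epstein-Barr virus. The record also gives a foxo1 status, which is wt+/mt+ for both naïve CD4+ arrays and wt+/mt- for both naïve CD8+ arrays, and a description as germinal center B cells. These entries do not match wild-type T cells and were set aside. *Foxo1* itself, chosen for this label, read 12.36 and 12.21 on the naïve CD4+ arrays and 12.16 and 12.21 on the naïve CD8+ arrays, and its difference of −0.10 (SE 0.18) did not pass the test (adjusted p = 0.778, limma). That is its brightest probe set. Its other probe sets were all lower in naïve CD8+ cells, by −0.90 to −0.31, and were not tested singly.

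The CD4 and CD8 lineages part in the thymus. ThPOK, the product of *Zbtb7b*, and GATA3 are required for the CD4 fate, while RUNX3 silences *Cd4* and supports the CD8 fate. Killing by lymphocytes uses perforin, which opens the target membrane, granzymes, which are the proteases that enter through it, and the machinery that docks and primes the granules. T-bet and EOMES are the T-box factors that drive these genes after activation. Naïve T cells of either lineage are regarded as lacking full killing ability, and the question of the comparison was which lineage and cytotoxic genes already differed before culture.

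Values below are log2 RMA intensities, in which 1 unit is a 2-fold change, and a difference is naïve CD8+ minus naïve CD4+. A gene was called at an adjusted p under 0.05 in limma, and was counted only where the 2 arrays of each naïve group lay less than 1 unit apart. By this rule 2361 genes were higher in naïve CD8+ cells, 13.6% of the 17400 tested, and 1091 were higher in naïve CD4+ cells, 6.27%. A further 147 genes passed the test but were left out because the arrays of a group disagreed. The differences higher in CD8+ cells had a median of 1.24, with 1623 genes at least 2-fold and 80 at least 8-fold apart, and those higher in CD4+ cells a median of −0.80, with 327 and 11. The median over all autosomal genes was −0.02. Without a naïve CD4+ array the counts fell to 1639 and 521 (without array 1) or 1546 and 459 (without array 2), and quantile normalization of the gene table gave 1699 and 1777, so the share of calls higher in CD8+ cells was 68.4% here and 48.9% there. That quantile normalization also ended the calls of *Birc5*, *Cd7*, *Ets1*, *Hdac3*, *Klf2*, *Myb*, *Prf1*, *Stat2*, *Tap2*, *Tcf3* and *Unc13d* among the genes named below (adjusted p from 0.0614 to 0.197). A fit to the 4 naïve arrays alone ended those of *Bach2*, *Birc5*, *Cbfb*, *Ccnb2*, *Cd7*, *Cd27*, *Chd4*, *Ets1*, *Fcer2a*, *Gzmb*, *Hba-a2*, *Il6ra*, *Lamp1*, *Pdia3* and *Tk1* (from 0.052 to 0.134). The table has no detection calls, and both groups read under 6 for 216 of the genes higher in CD8+ and 139 of those higher in CD4+ cells, where differences are close to background.

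**Figure D1:**
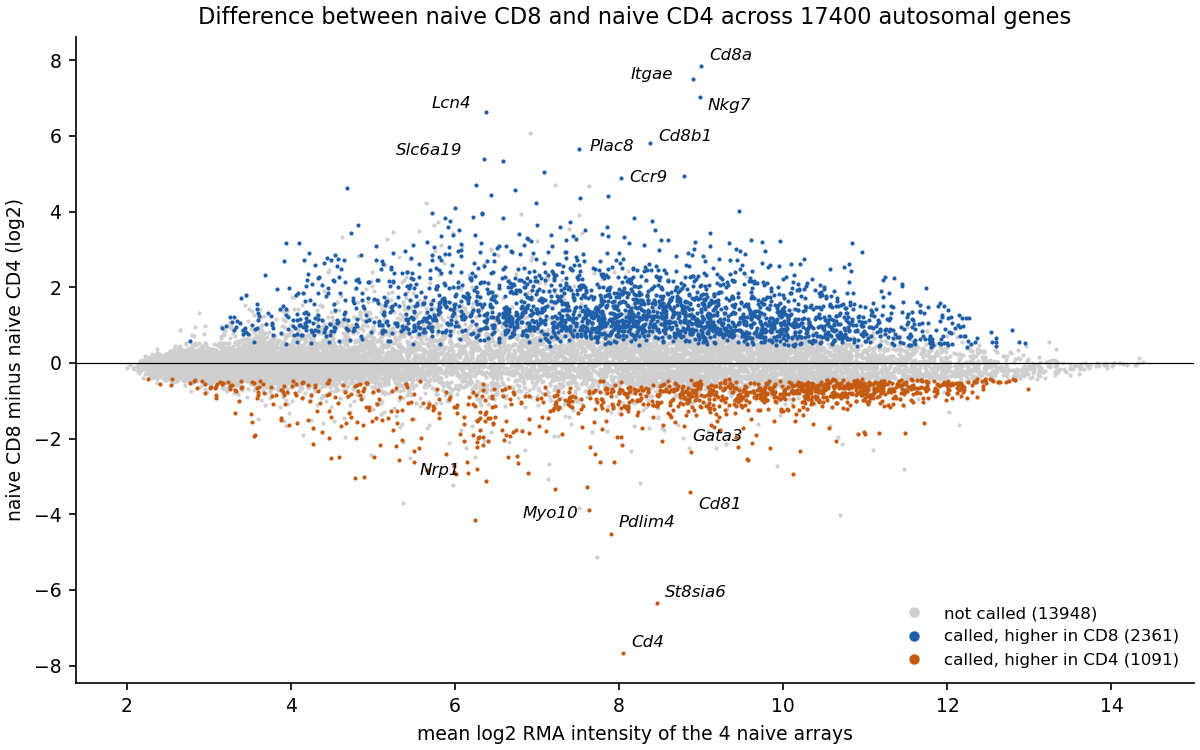
Difference between naïve CD8+ and naïve CD4+ cells (y axis, log2) against the mean log2 RMA intensity of the 4 naïve arrays (x axis) for 17400 autosomal genes. The 2361 genes called higher in CD8+ cells are blue, the 1091 called higher in CD4+ cells are orange, and grey genes were not called or had arrays that disagree. *Cd8a*, *Itgae* and *Nkg7* lie highest, at 7.84, 7.50 and 7.02, and *Cd4* lowest, at −7.68.

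Library facts bear on these counts. The 3′ minus 5′ signal of *Gapdh* was 2.49 and 2.42 on the naïve CD4+ arrays and 2.75 and 2.67 on the naïve CD8+ arrays. On the other 6 arrays it was 0.91 to 1.72. That of actin was 1.46 and 1.24 on the naïve CD4+ arrays and 2.13 and 1.73 on the naïve CD8+ arrays. On the other 6 arrays it was 0.77 to 2.10, which takes in both naïve CD4+ values. The naïve CD8+ arrays were the less alike pair: 2397 probe sets lay at least 2-fold apart between them, and 943 between the naïve CD4+ arrays. *Xist*, an RNA of the inactive X chromosome and so a mark of female cells, read 12.51 on naïve CD8+ array 1 and 3.97 on array 2, and 12.99 and 13.02 on the naïve CD4+ arrays. By this mark only naïve CD8+ array 2 lacked female cells, so sex differed within the naïve CD8+ group and not within the naïve CD4+ group. For this reason only autosomal genes are reported. Of 27 immediate early and stress genes, 23 had arrays that disagree, all in the naïve CD8+ group and with array 2 the lower. *Fos*, chosen after its values were seen, read 13.06 and 7.09 on the naïve CD8+ arrays. The mean of the MHC class II list was 6.51 and 8.43 on those arrays, that of the B cell list 4.96 and 6.09 and that of the myeloid list 4.91 and 6.23. Of the 2361 genes higher in CD8+ cells 1752 were still called without naïve CD8+ array 2, and of the 1091 higher in CD4+ cells 788. The part of these library differences in the counts was not tested.

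**Figure D2:**
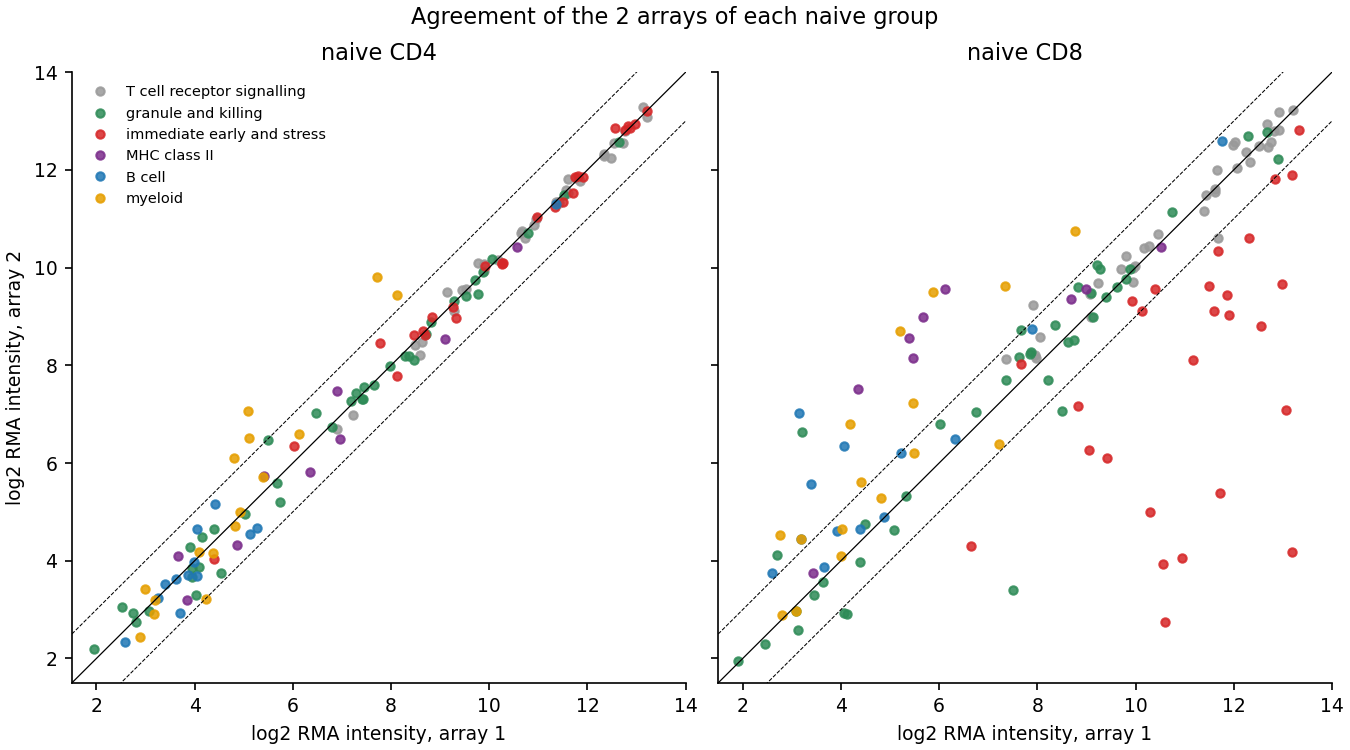
Log2 RMA intensity on array 2 (y axis) against array 1 (x axis) for the members of 6 gene lists, in naïve CD4+ cells (left) and naïve CD8+ cells (right). The solid line is equality and the dashed lines are 1 log2 unit from it. In naïve CD8+ cells 23 of 27 immediate early and stress genes, 10 of 16 myeloid genes and 5 of 9 MHC class II genes have arrays that disagree in a naïve group, and most of them lie outside the dashed lines.

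The co-receptor genes checked the labels. *Cd4* read 11.87 and 11.89 on the naïve CD4+ arrays and 4.30 and 4.10 on the naïve CD8+ arrays and differed by −7.68 (SE 0.17, adjusted p = 1.08e-06). *Cd8a*, which encodes the α chain of CD8, read 5.16 and 4.99 against 12.85 and 12.98, a difference of 7.84 (SE 0.41, adjusted p = 4.47e-05). The β chain gene *Cd8b1* read 5.63 and 5.30 against 11.01 and 11.54, a difference of 5.81 (SE 0.23, adjusted p = 2.47e-05). These genes were those used for the sort, so they show that the arrays carry the right labels, and all 5 probe sets of *Cd8a* pointed the same way.

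Among genes of the CD8 lineage list, 7 of 11 autosomal members were higher in naïve CD8+ cells and 1 was lower. All genes together gave shares of 13.6% and 6.27% in these directions. *Itgae*, the αE integrin chain CD103 that binds E-cadherin, read 5.09 and 5.21 in naïve CD4+ cells and 12.69 and 12.61 in naïve CD8+ cells and differed by 7.50 (SE 0.85, adjusted p = 0.000794). *Crtam*, an adhesion receptor of the immunoglobulin family, read 6.02 and 6.14 against 8.79 and 8.95, a difference of 2.80 (SE 0.25, adjusted p = 0.000303). *Klrd1*, which encodes the CD94 partner of NKG2 receptors, was well measured in both lineages, at 10.25 and 10.21 against 12.32 and 12.61, and the difference was 2.23 (SE 0.40, adjusted p = 0.00599). In each of these genes both naïve CD8+ arrays lay above both naïve CD4+ arrays, as one group lay clear of the other in 58.9% of all autosomal genes. *Cd7* differed by 0.65 (SE 0.19, adjusted p = 0.0451) and lost its call without naïve CD8+ array 2 (adjusted p = 0.189) or either naïve CD4+ array (0.205 and 0.0973). The member that went the other way was *St8sia6*, a sialyltransferase, at 11.68 and 11.58 in naïve CD4+ cells and 5.10 and 5.46 in naïve CD8+ cells. Its difference of −6.35 (SE 0.30, adjusted p = 3.31e-05) was the largest after *Cd4* among the genes higher in CD4+ cells, and its other 2 probe sets differed by −6.67 and −6.51, although the list had put it on the CD8 side. The median of the list was 1.04.

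Of 14 autosomal genes of the CD4 lineage list, 8 were higher in naïve CD4+ cells and 1 in naïve CD8+ cells, with a median of −1.07. The shares of all genes in these directions were 6.27% and 13.6%. *Cd200*, a ligand that restrains myeloid cells, read 9.30 and 9.19 in naïve CD4+ cells and 6.82 and 6.43 in naïve CD8+ cells and differed by −2.62 (SE 0.22, adjusted p = 0.000218). *Trat1*, which encodes the T cell receptor associated adaptor TRIM, read 11.39 and 11.34 against 9.10 and 8.99 and differed by −2.32 (SE 0.18, adjusted p = 0.00016). *Izumo1r*, the folate receptor 4 of regulatory and anergic CD4+ cells, differed by −2.22 (SE 0.46, adjusted p = 0.0116), a call lost without naïve CD8+ array 1 or either naïve CD4+ array (adjusted p from 0.0571 to 0.0693). The costimulatory receptor gene *Cd28* read 11.54 and 11.56 against 10.71 and 10.38, a difference of −1.0 (SE 0.19, adjusted p = 0.00695). *Il6ra*, the IL-6 receptor chain, differed by −0.74 (SE 0.17, adjusted p = 0.0203) but by −0.28 with the mean of its probe sets (adjusted p = 0.209), and lost its call without naïve CD8+ array 1 or either naïve CD4+ array (adjusted p from 0.0823 to 0.101). *Tnfrsf4*, which encodes the costimulatory receptor OX40, was the member higher in naïve CD8+ cells, at 6.65 and 6.51 against 7.50 and 7.73, a difference of 1.03 (SE 0.14, adjusted p = 0.00174).

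**Figure D3:**
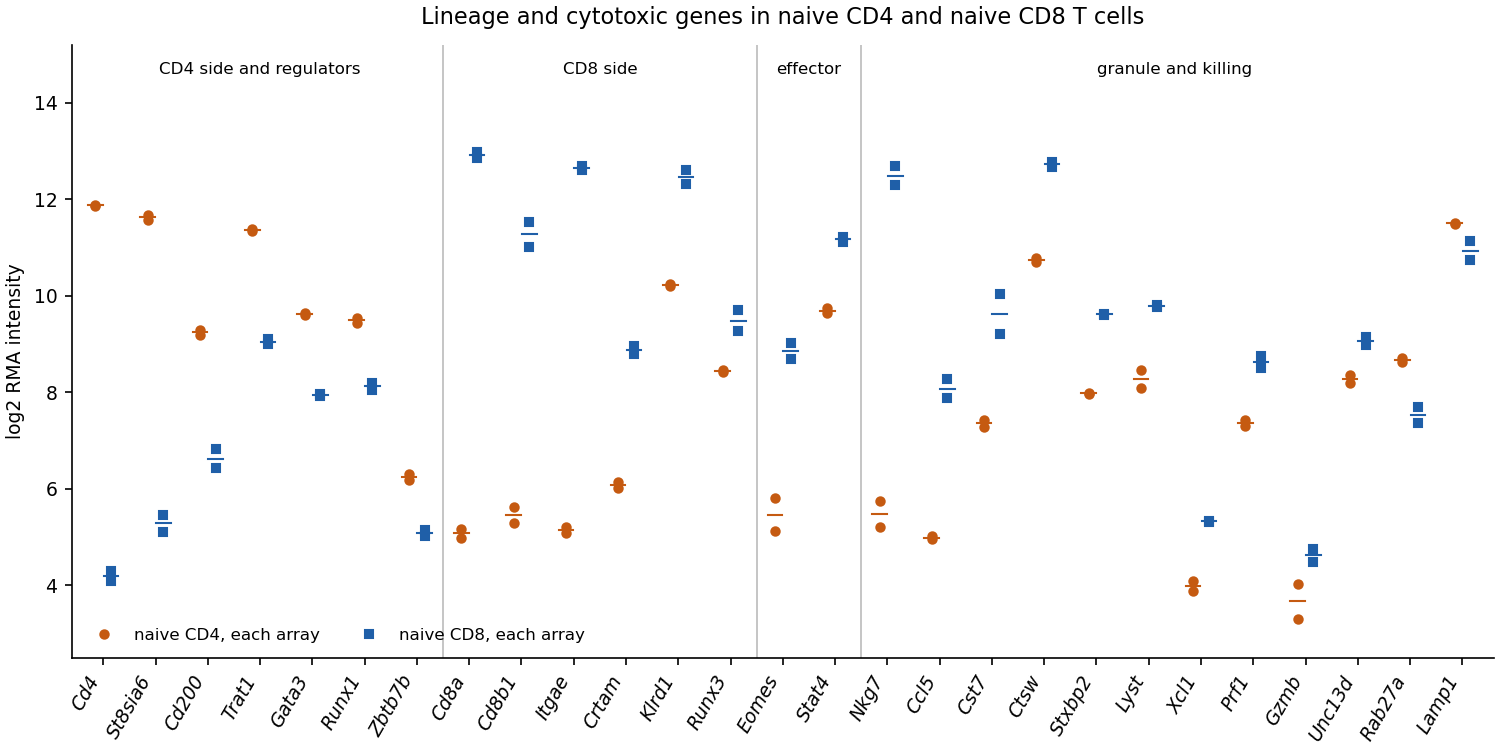
Log2 RMA intensity (y axis) of 27 genes on each naïve CD4+ array (orange circles) and each naïve CD8+ array (blue squares), with a line at the mean of the 2 arrays. Every gene shown was called. That the groups do not overlap follows from this choice, since it holds for all 3452 called genes. It also holds for 58.9% of all autosomal genes. *Nkg7* stands above 12 in naïve CD8+ and below 6 in naïve CD4+ cells, while *Gzmb* stays under 5 on all 4 arrays.

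The factors that set the lineages differed by far less than the co-receptors. *Zbtb7b* read 6.31 and 6.19 in naïve CD4+ cells and 5.03 and 5.15 in naïve CD8+ cells and differed by −1.16 (SE 0.16, adjusted p = 0.00169), and its second probe set differed by −1.71. *Gata3* read 9.64 and 9.60 against 7.97 and 7.93, a difference of −1.67 (SE 0.27, adjusted p = 0.0036). *Runx1*, the RUNX factor of early thymocytes and helper cells, read 9.55 and 9.45 against 8.05 and 8.20, a difference of −1.37 (SE 0.22, adjusted p = 0.00355), with all 6 of its probe sets lower in naïve CD8+ cells. *Runx3* was higher there, at 8.42 and 8.47 against 9.26 and 9.71, a difference of 1.04 (SE 0.17, adjusted p = 0.00363), although its second probe set differed by only 0.01. *Tox*, an HMG-box factor needed for CD4 development, read 10.01 and 10.09 against 9.12 and 8.69, a difference of −1.14 (SE 0.42) that missed the threshold (adjusted p = 0.102). It passed with the 4 naïve arrays alone (adjusted p = 0.0246), where the spread of the cultured cells does not enter.

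Over the whole list of lineage regulators, 7 of 28 were higher in naïve CD8+ cells and 7 in naïve CD4+ cells, and the median was −0.28. For all genes the shares were 13.6% and 6.27%. Besides *Runx3*, the genes higher in CD8+ cells were *Myc*, a growth factor-responsive regulator, by 1.48 (SE 0.12, adjusted p = 0.000204), *Ikzf3*, which encodes Aiolos, by 1.18 (SE 0.19, adjusted p = 0.00417), *Tcf3*, which encodes E2A, by 1.10 (SE 0.20, adjusted p = 0.00646), the deacetylase gene *Hdac3* by 1.44 (SE 0.28, adjusted p = 0.00947), *Myb* by 1.01 (SE 0.30, adjusted p = 0.0472) and *Klf2*, a factor of quiescence and egress, by 0.99 (SE 0.29, adjusted p = 0.0455). Besides *Gata3*, *Runx1* and *Zbtb7b*, those higher in CD4+ cells were *Bach2* by −0.62 (SE 0.15), the RUNX partner *Cbfb* by −0.60 (SE 0.14), *Chd4* by −0.57 (SE 0.16) and *Ets1* by −0.45 (SE 0.13), with adjusted p-values of 0.0241, 0.018, 0.0386 and 0.0428. Several of the small differences did not keep their calls. The other probe sets of *Ets1* (−0.98 to −0.81) and of *Myb* (1.28 and 1.27) did point the same way. *Myb*, *Klf2*, *Chd4* and *Ets1* lost their calls without any one of the 4 naïve arrays (adjusted p from 0.0526 to 0.188 over these genes), *Cbfb* without naïve CD8+ array 1 or either naïve CD4+ array (from 0.0686 to 0.0985) and *Bach2* without naïve CD8+ array 2 or either naïve CD4+ array (from 0.072 to 0.128). *Hdac3* lost its call without naïve CD4+ array 2 (0.0605), and *Tcf3* with the mean of its probe sets, where the difference was 0.35 (adjusted p = 0.15). Other probe sets turned 2 of these genes round: *Bach2* differed by 0.31 (adjusted p = 0.344) with its brightest probe set among those specific to 1 transcript group, and *Chd4* by 0.15 (adjusted p = 0.571) with the mean of its probe sets. *Bach2* also lost its call with the mean of its probe sets (adjusted p = 0.104), and *Chd4* with its brightest probe set specific to 1 transcript group (0.707).

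Before culture, naïve CD8+ cells already carried more RNA of several genes of the killing machinery, while *Gzmb*, *Gzmk* and *Gzmm* read under 6 on all 4 arrays. Of 38 autosomal members of the granule and killing list, 10 were higher in naïve CD8+ cells and 2 in naïve CD4+ cells, against 13.6% and 6.27% of all genes, with a list median of 0.24. Without naïve CD4+ array 2 the count higher in CD8+ cells was 5. In the list, 7 members had arrays that disagree and were not counted.

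The largest of these differences was in *Nkg7*, which encodes a granule membrane protein needed for efficient degranulation: it read 5.74 and 5.20 in naïve CD4+ cells and 12.30 and 12.69 in naïve CD8+ cells and differed by 7.02 (SE 0.22, adjusted p = 8.45e-06). *Ccl5*, a chemokine stored and released with granules by CD8+ cells, read 5.02 and 4.96 against 7.88 and 8.27, a difference of 3.08 (SE 0.41, adjusted p = 0.00167). *Cst7* encodes cystatin F, an inhibitor of the cathepsins that mature granzymes, and read 7.28 and 7.43 against 9.22 and 10.05, a difference of 2.28 (SE 0.27, adjusted p = 0.000973). The cathepsin W gene *Ctsw* was bright in both lineages, at 10.79 and 10.71 against 12.67 and 12.78, with a difference of 1.98 (SE 0.14, adjusted p = 0.000111). In each of these 4 genes both naïve CD8+ arrays stood above both naïve CD4+ arrays by more than 1 unit. That the groups do not overlap follows from the choice of called genes, since it holds for all 3452. It also holds for 58.9% of all autosomal genes. Without any one naïve array the difference was 6.75 to 7.29 for *Nkg7* and 2.89 to 3.28 for *Ccl5*. For *Cst7* it was 1.86 to 2.69 and for *Ctsw* 1.93 to 2.03.

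Genes of granule docking and release followed with smaller differences. *Stxbp2*, the Munc18-2 partner of syntaxin 11 at the docking step, read 7.97 and 8.0 in naïve CD4+ cells and 9.63 and 9.61 in naïve CD8+ cells and differed by 1.63 (SE 0.14, adjusted p = 0.000218), and its other 2 probe sets differed by 1.65 and 1.96. *Lyst*, the lysosomal trafficking gene of Chediak-Higashi syndrome, differed by 1.51 (SE 0.32, adjusted p = 0.0122), and the priming factor gene *Unc13d* by 0.79 (SE 0.20, adjusted p = 0.0253). Another 2 genes of the same machinery went the other way: *Rab27a*, a small GTPase that brings granules to the membrane, read 8.72 and 8.63 against 7.37 and 7.69, a difference of −1.15 (SE 0.21, adjusted p = 0.00624), and the granule membrane gene *Lamp1* differed by −0.56 (SE 0.16, adjusted p = 0.0397). Of these genes *Stxbp2* and *Rab27a* kept the call without any one naïve array, but *Rab27a* lost it with the mean of its 4 probe sets, at −0.46 (adjusted p = 0.133). *Unc13d* lost its call without any one naïve array (adjusted p from 0.056 to 0.137), *Lyst* without naïve CD8+ array 1 (0.0579) or naïve CD4+ array 2 (0.0853), and *Lamp1* without naïve CD8+ array 1 or either naïve CD4+ array (0.136 to 0.149).

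*Prf1*, the perforin gene, read 7.42 and 7.31 in naïve CD4+ cells and 8.75 and 8.51 in naïve CD8+ cells and differed by 1.27 (SE 0.27, adjusted p = 0.0138). Its second probe set differed by 0.02, and the call was lost without naïve CD8+ array 1 or either naïve CD4+ array (adjusted p from 0.0605 to 0.0806). *Gzmb*, the granzyme B gene, read 4.04 and 3.29 against 4.48 and 4.76, a difference of 0.95 (SE 0.23, adjusted p = 0.022) between levels that were low on all 4 arrays, and the call was lost without naïve CD8+ array 2 (0.104) or naïve CD4+ array 2 (0.0878). The same gene read 13.06 and 12.73 on average in CD4+ and CD8+ TEM cells. *Gzmk* read 3.95 and 3.85 against 3.64 and 3.56, a difference of −0.30 (SE 0.31, adjusted p = 0.596), and *Gzmm* 4.40 and 4.64 against 5.08 and 4.63, a difference of 0.34 (SE 0.19, adjusted p = 0.28). *Xcl1*, a chemokine gene of activated CD8+ cells, was also dim, at 4.08 and 3.88 against 5.33 and 5.32, with a difference of 1.34 (SE 0.32, adjusted p = 0.0204) whose call was lost without any one naïve array (adjusted p from 0.0714 to 0.113).

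For 3 genes of effector function the naïve CD8+ arrays disagreed, and they were not counted. *Gzma* read 5.68 and 5.60 in naïve CD4+ cells and 3.20 and 6.63 in naïve CD8+ cells. *Ifng*, the interferon-γ gene, read 4.14 and 4.49 against 7.50 and 3.40. For either gene the sign of the difference depended on which naïve CD8+ array was kept: *Gzma* differed by −2.44 with array 1 alone and 0.99 with array 2 alone, and *Ifng* by 3.19 and −0.91. *Fasl*, the Fas ligand gene, read 7.19 and 7.26 in naïve CD4+ cells and 4.12 and 2.90 in naïve CD8+ cells; the arrays disagreed on the level, but both lay below both naïve CD4+ arrays and the test passed (difference −3.71, SE 0.34, adjusted p = 0.000303).

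Promoter sequences are shown for the granule genes higher in naïve CD8+ cells, because RUNX factors, whose core hexamer is TGTGGT, searched on both strands, are among the regulators that differed. Of the 10 genes, 7 have a RefSeq promoter window in build GRCm38.p6, and 5 of these hold the hexamer in the 250 bases before the annotated start; *Lyst* and *Stxbp2* do not. The hexamer stands in 45.7% of the 35 list members with a window, in 15.9% of all 27025 genes with one, and in 14% of all 32851 windows. The sequences run 5′ to 3′ toward the start in the gene's orientation, with the hexamer in capitals. They lie at chr7:43436888-43437137 (+ strand) for *Nkg7*, chr2:150570165-150570414 (+) for *Cst7*, chr10:61297586-61297835 (+) for *Prf1* and chr14:56262335-56262584 (− strand) for *Gzmb*. A match is a description of these letters, not of binding.
Nkg7: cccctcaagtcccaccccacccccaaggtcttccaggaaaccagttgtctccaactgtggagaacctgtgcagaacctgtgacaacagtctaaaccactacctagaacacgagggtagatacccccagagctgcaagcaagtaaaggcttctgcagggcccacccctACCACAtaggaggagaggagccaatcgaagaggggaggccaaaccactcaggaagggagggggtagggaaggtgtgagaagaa
Cst7: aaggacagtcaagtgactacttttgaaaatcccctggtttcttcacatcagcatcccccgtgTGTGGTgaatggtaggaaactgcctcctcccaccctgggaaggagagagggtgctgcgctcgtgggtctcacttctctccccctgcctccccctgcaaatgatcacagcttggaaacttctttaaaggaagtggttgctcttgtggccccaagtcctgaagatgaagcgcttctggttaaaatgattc
Prf1: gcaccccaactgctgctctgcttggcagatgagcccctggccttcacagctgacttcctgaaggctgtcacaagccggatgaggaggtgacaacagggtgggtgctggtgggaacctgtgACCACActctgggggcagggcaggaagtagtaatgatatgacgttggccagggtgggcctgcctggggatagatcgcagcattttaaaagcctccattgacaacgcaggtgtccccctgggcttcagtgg
Gzmb: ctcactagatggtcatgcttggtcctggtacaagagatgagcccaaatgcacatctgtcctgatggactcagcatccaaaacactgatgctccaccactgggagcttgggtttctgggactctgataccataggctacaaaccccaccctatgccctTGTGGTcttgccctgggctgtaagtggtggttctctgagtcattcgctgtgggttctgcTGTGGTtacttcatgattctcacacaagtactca

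The hexamer begins 83 bases before the start in *Nkg7*, 188 in *Cst7*, 130 in *Prf1*, and 93 and 34 in *Gzmb*. *Xcl1* holds it 227 bases before the start. The genes with the hexamer include both the largest difference of the list, *Nkg7* at 7.02, and differences near background, *Gzmb* at 0.95.

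Of the effector regulators, 2 of 22 autosomal genes were higher in naïve CD8+ cells, 1 was lower and 7 had arrays that disagree. These counts are no larger than the shares over all genes, 13.6% and 6.27%. *Eomes* read 5.80 and 5.14 in naïve CD4+ cells and 8.70 and 9.02 in naïve CD8+ cells and differed by 3.39 (SE 0.32, adjusted p = 0.000383), and its second probe set differed by 2.74. *Stat4*, which transmits the IL-12 signal, read 9.74 and 9.65 against 11.11 and 11.23, a difference of 1.48 (SE 0.13, adjusted p = 0.000299). *Ikzf4*, the Eos gene of regulatory T cells, read 8.01 and 8.49 against 6.35 and 6.36, a difference of −1.89 (SE 0.17, adjusted p = 0.000319) that shrank to −0.39 with the mean of its 3 probe sets (adjusted p = 0.124). *Tbx21*, the T-bet gene, read 4.14 and 2.66 against 6.13 and 6.34; its naïve CD4+ arrays disagreed, so it was not counted, though both naïve CD8+ arrays lay above them (difference 2.83, SE 0.40, adjusted p = 0.00213).

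Of 24 cytokine receptor genes, 10 were higher in naïve CD8+ and 3 in naïve CD4+ cells, with a median of 0.37. The shares called over all genes were 13.6% and 6.27%. *Il2rb*, the β chain shared by the IL-2 and IL-15 receptors, read 6.67 and 6.81 in naïve CD4+ cells and 9.99 and 9.72 in naïve CD8+ cells and differed by 3.11 (SE 0.15, adjusted p = 3.31e-05). *Il15ra* differed by 1.83 (SE 0.28, adjusted p = 0.00285) and *Il18rap*, the signalling chain of the IL-18 receptor, by 3.06 (SE 0.18, adjusted p = 7.04e-05). *Il2ra*, the inducible α chain CD25, went the other way, at 6.17 and 7.04 against 4.03 and 4.03, a difference of −2.58 (SE 0.25, adjusted p = 0.000406). *Il7r*, the receptor gene of naïve T cell survival, chosen after its values were seen, lay above 12 on all 4 arrays, and its difference of 0.10 (interval at a confidence of 95% from −0.25 to 0.44) did not pass the test.

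Against 13.6% of all genes, 8 of 16 genes of the memory phenotype list were higher, with 1 lower, 5 disagreeing and a median of 1.01. They included *Plac8*, at 4.31 and 5.07 in naïve CD4+ cells and 10.25 and 10.43 in naïve CD8+ cells and differed by 5.65 (SE 0.25, adjusted p = 3.05e-05), besides *Ccl5*, *Il2rb* and *Il18rap*. The lower member was *Cd44*, the memory marker against which the cells were sorted, at 9.68 and 9.43 against 7.35 and 7.62 (difference −2.07, SE 0.18, adjusted p = 0.000283), named after its values were seen. Among NK receptor genes 3 of 18 were higher in naïve CD8+ cells at the threshold, near the 13.6% of all genes. They were *Crtam*, *Klrd1* and *Cd160*, which read 5.51 and 5.54 against 7.90 and 8.13 (difference 2.49, SE 0.18, adjusted p = 0.000115, limma). *Ncr1*, *Klra8* and *Klre1*, some of the fixed markers of NK cells, lay between 2.24 and 4.30 on all 4 naïve arrays. The other fixed markers, *Klrb1c* and *Tyrobp*, are not given here, so these values do not speak for the whole set. The mean of the NK receptor list was 4.50 and 4.62 on the naïve CD4+ arrays, and 4.76 and 5.43 on the naïve CD8+ arrays. Its member *Fcer1g*, named after its values were seen, read 4.81 and 5.18 against 5.48 and 7.09, so its naïve CD8+ arrays disagreed. The part of NK cells in these values was not tested.

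Of 25 genes of the naïve state and of homing, 5 were higher in naïve CD8+ and 2 in naïve CD4+ cells, with a median of 0.07. Over all genes the shares were 13.6% and 6.27%. A wide difference, next to that of *Itgae*, was in *Ccr9*, the receptor for the gut chemokine CCL25, at 5.54 and 5.61 in naïve CD4+ cells and 10.48 and 10.43 in naïve CD8+ cells and differed by 4.88 (SE 0.23, adjusted p = 3.31e-05), with all 5 probe sets higher. *Cd27* differed by 1.14 (SE 0.25, adjusted p = 0.0147) and lost its call without either naïve CD4+ array (adjusted p = 0.087 and 0.0591). *Igfbp4*, a gene of naïve T cells, was higher in naïve CD4+ cells, at 12.59 and 12.43 against 10.85 and 10.99, a difference of −1.58 (SE 0.14, adjusted p = 0.000237).

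Genes of T cell receptor signalling were higher in naïve CD8+ cells in 11 of 34 cases and lower in 1, *Trat1*, with a median of 0.06. The same shares of all genes were 13.6% and 6.27%. *Ptpn22*, a phosphatase that restrains the receptor, read 10.92 and 10.86 against 12.33 and 12.17, a difference of 1.36 (SE 0.16, adjusted p = 0.000867). *Grap2*, the adaptor GADS, differed by 1.28 (SE 0.15, adjusted p = 0.000973). *Tespa1* differed by 1.27 (SE 0.26, adjusted p = 0.0104) but by 0.00 with the mean of its probe sets (adjusted p = 0.995), and lost its call without naïve CD8+ array 1 (0.0599) or naïve CD4+ array 2 (0.0693). The receptor chains themselves did not pass the test: *Cd3e*, *Cd3d* and *Cd3g*, fixed as T cell markers, differed by −0.40, −0.09 and −0.03, all above 12 on every naïve array.

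Costimulatory and inhibitory receptor genes split, with 4 of 25 higher in naïve CD8+ and 5 in naïve CD4+ cells and a median of 0.17. Of all genes 13.6% and 6.27% were called. Besides *Cd200*, *Cd28* and *Cd160*, *Pdcd1*, which encodes PD-1, differed by −1.56 (SE 0.35, adjusted p = 0.0165) at levels of 5.14 and 6.03 against 3.82 and 4.22. That call was lost without naïve CD8+ array 1 (0.092) or naïve CD4+ array 2 (0.103). *Slamf1* differed by −1.09 (SE 0.28, adjusted p = 0.0279), with the call lost without naïve CD8+ array 2 or either naïve CD4+ array (adjusted p from 0.0867 to 0.138).

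Of 11 autosomal genes of the regulatory T cell list, 6 were higher in naïve CD4+ cells and 2 in naïve CD8+ cells, and the list median was −1.31. Across all genes these shares were 6.27% and 13.6%. *Nrp1*, a surface marker of thymic regulatory cells, read 7.35 and 7.99 in naïve CD4+ cells and 4.70 and 5.05 in naïve CD8+ cells and differed by −2.79 (SE 0.33, adjusted p = 0.00102). *Il2ra*, *Izumo1r* and *Ikzf4* belong to the same list. *Foxp3*, its defining factor, is on the X chromosome and was not counted; it read 5.72 and 6.24 against 5.25 and 5.62, a difference of −0.54 that did not pass the test (adjusted p = 0.196). The sort held no gate against regulatory T cells, and their part in these differences was not tested. In such bulk samples fewer cells of a type and less RNA per cell cannot be told apart.

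**Figure D4:**
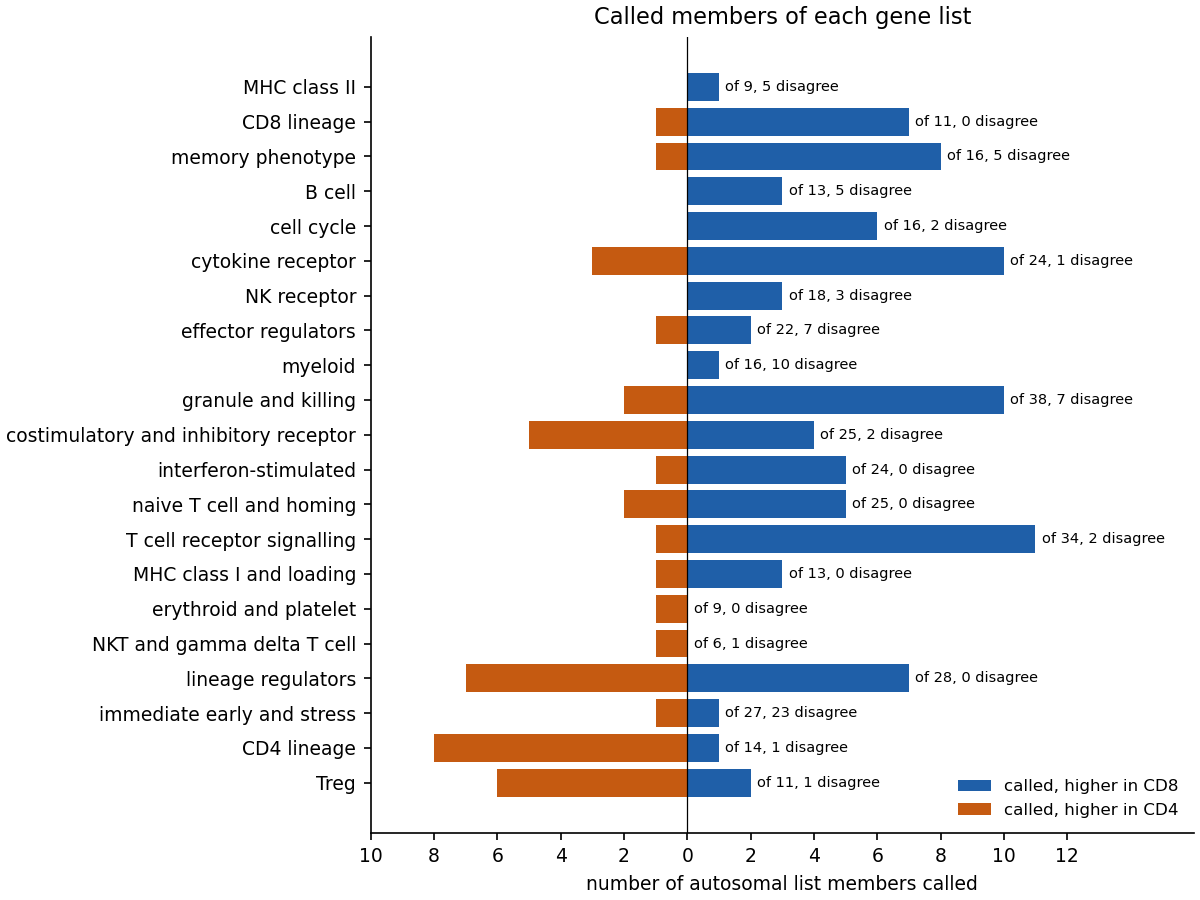
Number of autosomal members of each of 21 gene lists called higher in naïve CD8+ cells (blue, to the right) and higher in naïve CD4+ cells (orange, to the left), ordered by the median difference of the list. The text gives the number of autosomal members and how many have arrays that disagree. The T cell receptor signalling list has the most members higher in CD8+ cells, 11 of 34, and the CD4 lineage list the most higher in CD4+ cells, 8 of 14. Over all autosomal genes the shares called are 13.6% and 6.27%.

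Of 24 interferon-stimulated genes, 5 were higher in naïve CD8+ and 1 in naïve CD4+ cells, and the median was 0.08. The shares over all genes were 13.6% and 6.27%. *Mx1*, a myxovirus resistance GTPase, read 4.26 and 4.31 in naïve CD4+ cells and 8.01 and 8.28 in naïve CD8+ cells and differed by 3.86 (SE 0.28, adjusted p = 0.000125). *Oas2* differed by 1.76 (SE 0.20, adjusted p = 0.000784) and *Gbp3* by 1.13 (SE 0.16, adjusted p = 0.00193). *Stat2* differed by 1.42 (SE 0.29, adjusted p = 0.00996), with the call lost without naïve CD8+ array 1 (0.0512) or naïve CD4+ array 2 (0.0658). Of 13 genes of MHC class I and its loading, 3 were higher in naïve CD8+ cells and 1 lower, against the same shares over all genes. The transactivator gene *Nlrc5* differed by 1.54 (SE 0.12, adjusted p = 0.000184). The peptide transporter gene *Tap1* differed by 1.15 (SE 0.17, adjusted p = 0.00253), but by 0.26 on averaging its probe sets (adjusted p = 0.235), and *Tap2* by 0.70 (SE 0.14, adjusted p = 0.0113), a call lost without naïve CD4+ array 2 (0.0728). *Pdia3*, a chaperone of the loading complex, differed by −0.60 (SE 0.16, adjusted p = 0.0294), and its call was lost without naïve CD8+ array 1 or either naïve CD4+ array (adjusted p from 0.0902 to 0.14) and with the mean of its probe sets (0.0552).

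Some markers of other cells were also called. In the B cell list 3 of 13 genes were higher in naïve CD8+ cells, against 13.6% of all genes, and 5 had arrays that disagree. *Cd79b*, a chain of the B cell receptor complex, read 4.05 and 4.64 in naïve CD4+ cells and 7.88 and 8.75 in naïve CD8+ cells and differed by 3.97 (SE 0.31, adjusted p = 0.00017), whereas the defining B cell genes *Ms4a1* and *Pax5* read 3.15 and 3.65 on naïve CD8+ array 1, and 7.02 and 3.88 on array 2. *Bank1* differed by 1.57 (SE 0.35, adjusted p = 0.016) and *Fcer2a* by 0.53 (SE 0.15, adjusted p = 0.0454), and neither call held without naïve CD8+ array 2 (0.075 and 0.174) or naïve CD4+ array 2 (0.109 and 0.16). That of *Bank1* was also lost without naïve CD8+ array 1 (0.0576), and that of *Fcer2a* without naïve CD4+ array 1 (0.15) and with the mean of its probe sets, at 0.14 (adjusted p = 0.558). In the MHC class II list *H2-Oa* alone was called, by 1.83 (SE 0.25, adjusted p = 0.00197), with 5 of 9 members disagreeing. In the myeloid list *Cd68* alone was called, by 2.04 (SE 0.26, adjusted p = 0.00145), with 10 of 16 disagreeing. Neither of these 2 lists exceeded the 13.6% of all genes called higher in naïve CD8+ cells. Of the fixed myeloid markers, *Lyz2* read 5.20 and 8.70 on the naïve CD8+ arrays, *Csf1r* 4.02 and 4.66, and *Cd14* 3.09 and 2.98. *Fcgr3* read 4.41 and 5.61 there, against 5.39 and 5.72 on the naïve CD4+ arrays. The part of B or myeloid cells in the differences of naïve CD8+ array 2 was not tested.

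Of 16 cell cycle genes, 6 were called higher in naïve CD8+ cells. *Mki67* read 4.61 and 4.28 against 6.25 and 6.60, a difference of 1.98 (SE 0.25, adjusted p = 0.00122), *Birc5* differed by 0.97 (SE 0.19, adjusted p = 0.00958), and *Tk1* and *Ccnb2* differed by 0.99 and 1.27. The call of *Tk1* was lost without naïve CD4+ array 1 (0.0535) and that of *Ccnb2* without naïve CD8+ array 2 or naïve CD4+ array 2 (0.0866 and 0.105). Of the immediate early and stress genes that agreed, *Nfkbiz* was lower in naïve CD8+ cells by −1.87 (SE 0.25, adjusted p = 0.00177; −0.13 with the mean of its probe sets, adjusted p = 0.859) and *Ier3* higher by 1.67 (SE 0.32, adjusted p = 0.00817; adjusted p = 0.0597 without naïve CD4+ array 1). In the erythroid and platelet list 1 of 9 genes was called, *Hba-a2*, by −0.76 (SE 0.19, adjusted p = 0.0247), a call lost without naïve CD8+ array 2 or either naïve CD4+ array (0.0927 to 0.117). In the list of NKT and γδ T cells 1 of 6 was called, *Slamf1*. Over all genes 13.6% were called higher in naïve CD8+ and 6.27% higher in naïve CD4+ cells.

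Beyond the lists, the 15 largest differences in each direction were mostly in genes outside them. Higher in naïve CD8+ cells were *Lcn4*, a lipocalin, by 6.62 (SE 0.33), *Slc6a19*, a transporter of neutral amino acids, by 5.38 (SE 0.26), *Baiap3*, a relative of the Munc13 release factors, by 5.34 (SE 0.19), *Haao*, an enzyme of tryptophan breakdown, by 5.04 (SE 0.27), *Gm30054* by 4.95 (SE 0.45), the pseudogene *Slc2a4rg-ps* by 4.69 (SE 0.22), *Plekha6* by 4.61 (SE 0.20), *Ccdc102a* by 4.56 (SE 0.34) and *Bend4* by 4.44 (SE 0.42). *Slc6a19* read 3.55 and 3.77 in naïve CD4+ cells and 8.83 and 9.24 in naïve CD8+ cells, and *Haao* read 4.77 and 4.36 against 9.46 and 9.75. The adjusted p-values of these 9 genes lay between 1.59e-05 and 0.000384. The second probe set of *Lcn4* differed by 0.73 only, while that of *Slc6a19* differed by 5.33.

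Higher in naïve CD4+ cells, after *Cd4* and *St8sia6*, was *Pdlim4*, an actin-binding PDZ and LIM protein, at 10.31 and 9.99 against 5.22 and 6.06, a difference of −4.51 (SE 0.31, adjusted p = 0.000107). *Cd81*, a tetraspanin of the immune synapse, read 10.54 and 10.61 against 6.87 and 7.45, a difference of −3.42 (SE 0.20, adjusted p = 6.96e-05). The unconventional myosin gene *Myo10* differed by −3.88 (SE 0.22) and *Itgb3*, the integrin β3 chain, by −2.94 (SE 0.20). The other genes of this set were *1110032F04Rik* (−4.15), *Gm15708* (−3.33), *Igsf23* (−3.29), the peptide transporter gene *Slc15a1* (−3.12), *Itih5* (−3.05), *Pid1* (−3.02), the small GTPase gene *Rhoc* (−2.94), *4921531C22Rik* (−2.91) and the aldehyde dehydrogenase gene *Aldh2* (−2.90). The other probe sets of *Pid1* differed by 0.25 and 0.49, the other way, and *Rhoc* lost its call with its brightest probe set among those specific to 1 transcript group, at −0.50 (adjusted p = 0.329).

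The second question was which of these differences were still there between CD8+ and CD4+ TEM cells, on 4 other arrays. In that comparison 3.57% of all genes were called higher in CD8+ and 2.24% higher in CD4+ TEM cells. Some B cell genes were high in both: *Ebf1*, named after its values were seen, averaged 10.44 in CD4+ and 10.64 in CD8+ TEM cells. In naïve CD4+ and CD8+ cells it averaged 3.32 and 4.48. In CD4+ and CD8+ TEM cells *Cd79b* averaged 8.59 and 9.59, but *Cd79a* 5.93 and 5.03 and *Bank1* 4.04 and 3.98. The part of B cell RNA in the TEM differences was not tested. Of the 2361 genes higher in naïve CD8+ cells, 163 were also called higher in CD8+ TEM cells (6.90%) and 62 were called lower. Of the 1091 genes higher in naïve CD4+ cells, 109 were also called higher in CD4+ TEM cells (9.99%) and 24 lower. These 272 genes became 142 without either naïve CD4+ array and 49 to 103 without any one TEM array, and 564 with array weights. The naïve and the TEM difference correlated at a Pearson r of 0.30 across the 3452 called genes and 0.17 across all 17400, where genes are not independent and the points share the spread of the array pairs. The difference between the 2 differences was itself called for 1181 of the genes higher in naïve CD8+ cells and 410 of those higher in naïve CD4+ cells (37.6%), against 12.6% of all genes, which is 2200 genes. Without any one TEM array that count was 949 to 1464, and without naïve CD4+ array 1 or 2 it was 1312 and 1180. Since the genes were taken for their naïve difference, which enters this test, these 2 counts are a description.

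Among the 43 called genes of the lineage, granule and effector lists, 13 were called the same way in TEM cells, 2 the opposite way, and 25 had a called difference of differences. The lineage factors were called on the same side: *Gata3* differed by −1.79 in TEM cells (SE 0.27, adjusted p = 0.0103), *Runx1* by −1.62 (SE 0.22, adjusted p = 0.00661) and *Zbtb7b* by −0.91 (SE 0.16, adjusted p = 0.0176), and for none of them did the change in the difference pass the test (adjusted p = 0.891, 0.693 and 0.541). *Cd8b1* differed by 5.89 there (SE 0.23) and *Myc* by 1.11 (SE 0.12). *Runx3*, in contrast, differed by −0.15 in TEM cells (SE 0.17, adjusted p = 0.704), with levels of 10.40 in CD4+ and 10.25 in CD8+ TEM cells, and the change in its difference was called (1.19, SE 0.23, adjusted p = 0.0157).

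Of the 12 granule genes called in naïve cells, 0 were called the same way in TEM cells by limma at an adjusted p under 0.05, with or without array weights, and 3 were at an unadjusted p under 0.05: *Prf1*, *Nkg7* and *Cst7*. Over all called genes this share was 6.90% of those higher in naïve CD8+ and 9.99% of those higher in naïve CD4+ cells. A count of 0 among 12 genes therefore does not set the granule genes apart. *Nkg7* read 11.84 in CD4+ and 12.36 in CD8+ TEM cells on average, a difference of 0.52 (SE 0.22, adjusted p = 0.226), and the naïve difference exceeded it by 6.50 (SE 0.30, adjusted p = 0.000186). *Ctsw* differed by 0.02 in TEM cells (SE 0.14, adjusted p = 0.972) and *Stxbp2* by 0.14 (SE 0.14, adjusted p = 0.658), and both changes were called. *Prf1* differed by 0.73 in TEM cells (SE 0.27, adjusted p = 0.183), and the change in its difference was not called (0.54, adjusted p = 0.45). *Eomes* turned round: it read 8.32 in CD4+ and 6.33 in CD8+ TEM cells and differed by −1.99 (SE 0.32, adjusted p = 0.0145), where the naïve difference had been 3.39. *Klf2* was the other gene called the opposite way, at −1.48 in TEM cells (SE 0.29, adjusted p = 0.0265).

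**Figure D5:**
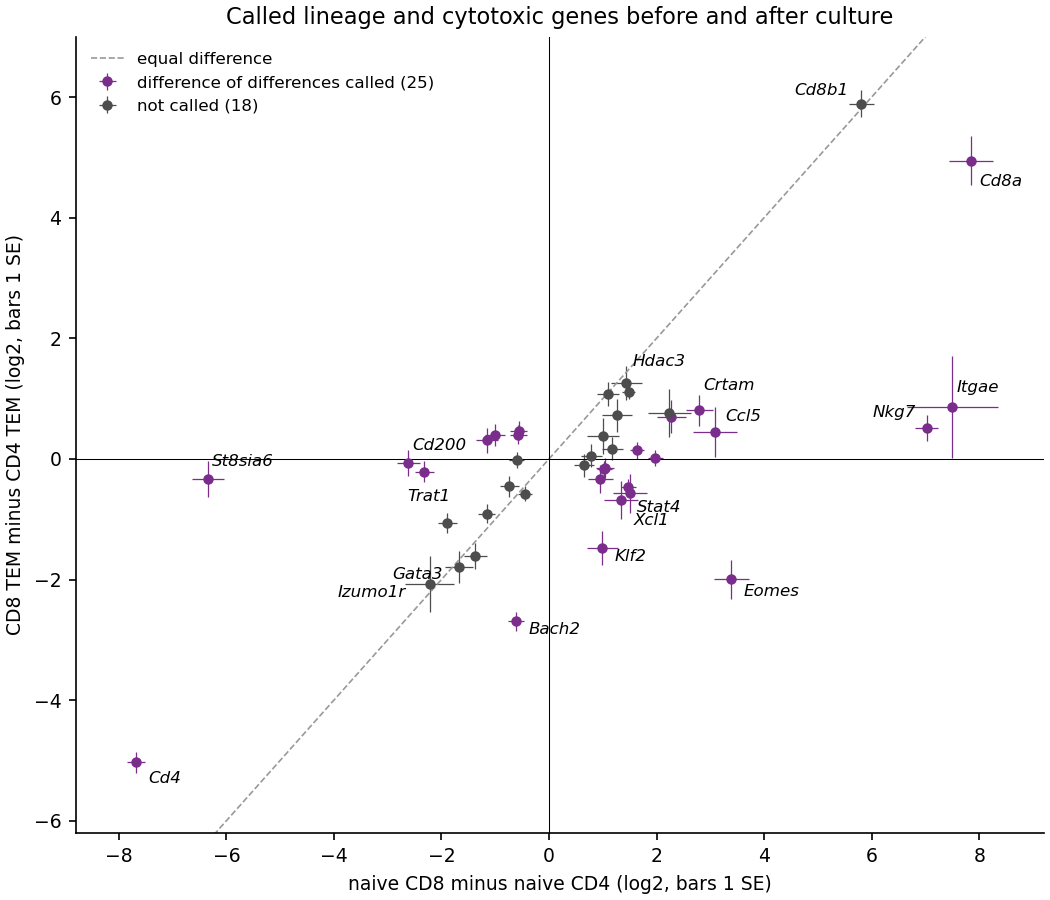
CD8+ minus CD4+ difference in TEM cells (y axis, log2) against that in naïve cells (x axis, log2) for the 43 called genes of the lineage, granule and effector lists, with bars of 1 SE. Purple genes (25) have a called difference between the 2 differences and grey genes (18) do not. *Cd8b1*, *Gata3* and *Hdac3* lie near the dashed line of equal differences, *Nkg7* and *Itgae* near 0 on the y axis, and *Eomes* below it at −1.99.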

How the data were processed

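RNA of 5 populations of mouse T cells, 2 arrays each, had been hybridised to Affymetrix whole-genome mouse arrays, which read a transcript by probe sets near its 3′ end. The authors deposited log2 intensities after robust multi-array average (RMA) summarisation, and the methods name BRB-ArrayTools for it. The version, a genome build and detection calls are not given in the sources used here, and scanner files were not analysed here. RMA corrects background and sets all arrays to a shared distribution of intensities, which narrows differences near background. The precision is limited by the number of arrays.

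Of 45101 probe sets, 64 are controls, 34945 carry 1 gene symbol in the platform annotation, 932 carry several and 9160 are unnamed here. Names and chromosomes were updated through RefSeq tables (GRCm38.p6), and 18193 genes remained, 9010 of them with more than 1 probe set. Group means were fitted with limma 3.58.1 in R 4.3.3 on all 10 arrays (5 residual degrees of freedom), with eBayes and Benjamini-Hochberg adjustment over the 18193 genes, all p-values being two-sided. With 2 arrays against 2, an exact permutation test cannot go below 0.333, so no such test was used. Agreement meant less than 1 log2 unit between the 2 arrays of each naïve group, and counts were made over autosomal genes. Differences between the TEM and naïve contrasts were tested as a contrast of the same fit. Figures were drawn with matplotlib 3.10.9.

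The members, the 21 gene lists and the rule for naming genes were chosen with earlier results of these data known, so list counts are descriptions. The rule named the co-receptor genes, the 15 largest differences each way, every called member of the lineage, granule and effector lists, up to 4 called members of each other list, and 15 fixed lineage and killing genes. Genes named outside it are said to be so, or are fixed markers of a cell type. Promoter windows (250 bases before the start) came from RefSeq, build GRCm38.p6, by gene symbol. The fit was tested on simulated data for the naïve contrast over 18193 genes with 200 changed by known amounts. It called 34% of changes of 1 log2 unit, 84% of 2, 90% of 3 and 98% of 4, and 3.16% of its calls were false. The simulated noise was independent between genes and no agreement condition was applied. With 200 changed genes, against 3452 called here, these shares do not carry over to the reported calls. Alternatives concerned the probe set, the arrays in the fit, the variance model, array weights, quantile normalization, dim probe sets, the agreement limit, a replicate block, the call rule and leaving out each array.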

Additional observations from a re-analysis of the deposited data

Results flagged for a closer look

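For 25 of the 43 called genes of the lineage, granule and effector lists, the CD8+ minus CD4+ difference in naïve cells differed from that in TEM cells by a test of the change itself (limma, adjusted p under 0.05). A change is given below as the naïve difference minus the TEM difference, in log2 units. The genes were taken for their naïve difference, which enters the test, so the values are a description.

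The change was positive, toward a higher CD8+ side in naïve cells, in 17 genes. It was 6.64 for *Itgae* (adjusted p = 0.0116), 6.50 for *Nkg7* (adjusted p = 0.000186) and 5.38 for *Eomes* (adjusted p = 0.000754). Among the other granule genes it was 2.63 for *Ccl5*, 2.08 for *Lyst*, 2.03 for *Xcl1*, 1.96 for *Ctsw*, 1.57 for *Cst7*, 1.49 for *Stxbp2* and 1.29 for *Gzmb*. Among lineage genes and regulators it was 2.90 for *Cd8a*, 2.47 for *Klf2*, 2.08 for *Bach2*, 1.99 for *Crtam*, 1.94 for *Stat4*, 1.20 for *Tnfrsf4* and 1.19 for *Runx3*.

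The change was negative in 8 genes, at −6.02 for *St8sia6* (adjusted p = 0.000506), −2.65 for *Cd4* (adjusted p = 0.000822), −2.55 for *Cd200*, −2.11 for *Trat1*, −1.45 for *Rab27a*, −1.40 for *Cd28*, −1.03 for *Lamp1* and −0.97 for *Chd4*. *Bach2* and *Chd4* are the genes whose naïve difference turned round with another choice of probe set.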

How the results depend on the processing

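The counts kept within 1.5 times of 2361, 1091, 10, 272 and 2200 (genes higher in naïve CD8+ cells, higher in naïve CD4+ cells, granule genes higher in naïve CD8+ cells, genes called the same way in TEM cells, and called changes between the contrasts) under most alternatives. The exceptions follow, and the cause was not tested. The count higher in naïve CD4+ cells was 605 with the 4 naïve arrays alone, 1777 after quantile normalization of the gene table and 372 with a 2-fold rule and no test, and the count called the same way in TEM cells was 564 with array weights. Quantile normalization of all probe sets gave 2211 and 1130. A demand that all bright probe sets of a gene point the same way gave 2084 and 982. Both, and leaving out each TEM array, were chosen after seeing the data. Genes with no other probe set at a naïve mean of at least 6 passed that demand untested. Of the genes higher in CD8+ cells 743 had such a probe set, and 277 had an opposite one. Of those higher in CD4+ cells the numbers were 528 and 109. The sign was the same in 68.0% and 85.6% of these probe sets. Leaving out 1 array gave 1546 to 2033 genes higher in CD8+ and 459 to 1181 higher in CD4+ cells, 5 to 9 granule genes, 49 to 279 genes called the same way in TEM cells and 949 to 2377 called changes; a lone array was assumed to vary like the other groups. The change between the contrasts was not run with 4 arrays, since it needs all 4 groups.

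The 107 genes named by rule gave 1381 results under alternatives, of which 1243 kept direction and side of the threshold, 131 lost the call, 3 gained it and 4 reversed, in 39 genes. The reversals were *Bach2* at 0.31 with its brightest probe set specific to 1 transcript group, *Chd4* at 0.15 with the mean of its probe sets, and *Gzma* and *Ifng*, which lay at −2.44 and 0.99, and at −0.91 and 3.19, when either naïve CD8+ array was left out. Of the 100 such genes that were called, 71 kept the call without any one naïve array.

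Same-numbered arrays did not deviate together (correlations of replicate differences between groups from −0.04 to 0.03), so the numbers do not pair the samples. With the replicate block the counts were 2294, 981, 10, 219 and 1992.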
